A study of Mus musculus with 3 samples.

Results

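The cells described here are the naive CD4 T cells with the largest share of transcripts from the mitochondrial genome. In each plate the share was taken per cell as the unique molecular identifiers (UMIs) in rows of chromosome M (chrM) over all UMIs that were not spike-ins. Cells at or above the 90th percentile of their plate were taken, which gave 72 of 697 cells, with 18, 21 and 33 in plates 1, 2 and 3. They are called high-share cells. Their comparison group is the 349 cells between the 25th and 75th percentile of the same plates (86, 101 and 162), called middle cells. The cells were chosen by measured values, namely their chrM UMIs and their other UMIs, so these and the share are given as a description with no test. For nuclear genes the chrM rows were dropped from the outcome and from the totals.

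All cells came from C57BL/6 mice aged 8 to 12 weeks, males and females pooled, and were used freshly sorted, with no treatment. Spleen and lymph node cells were gated as single live cells by surface markers that included presence of TCRb, CD4 and CD5 and absence of CD8, CD25 and CD44, and were index-sorted over the range of CD5, a surface protein set by how strongly a naive cell is signalled by self-ligands. Transcripts were counted by SORT-seq, a plate method in which each well holds a poly-T primer with a cell barcode and a UMI. The 3 samples are plates, and nothing in the labels says that they hold cells of separate animals. P-values here therefore measure how differences within a plate vary over plates, which may be technical. In gene fits with the plate as a block, differences in level between plates are removed. The remaining spread is taken over all 4 percentile ranges of the share, not only those compared, and is moderated over genes.

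The mitochondrial genome encodes core subunits of respiratory complexes I, III and IV and of the ATP synthase, as well as the 2 ribosomal RNAs and the transfer RNAs of the mitochondrial ribosome. It is transcribed inside the organelle, while all other mitochondrial proteins are encoded in the nucleus and imported. In single-cell work a high mitochondrial share is often read as a mark of damaged or dying cells, and it also depends on how many mitochondria a cell holds and how active they are.

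The chrM share differed between the plates before any cell was chosen. Plates 1, 2 and 3 had medians of 15.9%, 12.8% and 15.1%. Plate 2 also had another chrM make-up in its middle cells. There mtAtp6 took 12.7% of chrM UMIs, against 23.2% and 21.6% in plates 1 and 3, and mt-Rnr2 took 19.1%, against 11.1% and 11.9%. Percentiles over all plates together would have placed 32, 5 and 33 cells in the high group. All comparisons were made within plates for this reason. The non-spike-in UMIs of a plate summed to 726230, 1113632 and 1404157.

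The share was spread without a gap at the threshold. The 90th percentile lay at 21.1%, 16.3% and 19.1% in plates 1, 2 and 3. The high-share cell next to it had 21.1%, 16.3% and 19.1%, and the nearest cell below it had 21.1%, 16.3% and 19.0%. In plate 3 these 2 cells had exact 95% binomial intervals of 17.3 to 21.0% and 18.2 to 19.9%, so counting error alone could exchange them. The intervals cover counting error only. Over all cells of a plate the standard deviation of the share was 3.53, 3.21 and 3.38 percentage points, against a median counting error of 0.60, 0.45 and 0.58. The highest cells of plates 1, 2 and 3 reached 25.6%, 30.3% and 31.2%.

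**Figure D1:**
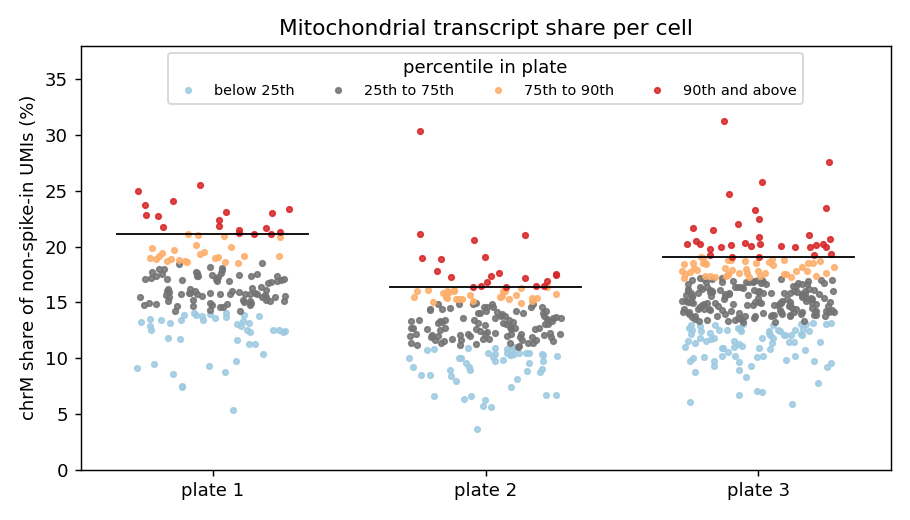
Share of chrM UMIs in all non-spike-in UMIs (y axis, percent) for each of the 697 cells, by plate (x axis, cells spread sideways at random). Colours give the percentile range within the plate and the black line is the plate's 90th percentile. The red high-share cells continue the spread of the other cells, and the line is lowest in plate 2.

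Relative to the spike-ins, high-share cells held fewer nuclear and more chrM transcripts. The median of nuclear UMIs per cell was 1787 in high-share and 3254 in middle cells of plate 1. Plate 2 had 4770 and 5041, and plate 3 had 2556 and 3115. The median of chrM UMIs per cell was 536 against 644 in plate 1, 1035 against 712 in plate 2 and 649 against 586 in plate 3, so without the spike-ins it was lower in plate 1 and higher in plates 2 and 3. Per spike-in count the medians of nuclear UMIs were 2.35 against 3.31, 4.02 against 5.12 and 2.16 against 2.72, so they were lower in each plate. On the log2 scale the difference averaged -0.39 (SD 0.089 over plates). The chrM UMIs per spike-in count had medians of 0.717 against 0.657, 0.939 against 0.744 and 0.611 against 0.479, higher in each plate by 0.27 (SD 0.13) on the log2 scale. Cells with under 2000 nuclear UMIs made up 55.6%, 28.6% and 42.4% of high-share cells and 26.7%, 12.9% and 20.4% of middle cells, more in each plate.

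Of the 36 chrM rows, 14 held at least 500 UMIs, and the other 22 held 463 UMIs together. mtAtp6, a subunit of the ATP synthase, led with 19.2% of chrM UMIs, followed by mt-Rnr2, the large ribosomal RNA, with 14.4%, the cytochrome oxidase subunit mtCo1 with 12.0% and the cytochrome b gene mtCytb with 10.03%. All 14 rows were higher in high-share than in middle cells in 3 of 3 plates, which the choice of the cells favours. The sizes were uneven. In plates 1, 2 and 3 the ratio of high-share to middle cells, each as a share of all UMIs, was 1.28, 1.28 and 1.24 for mtCo1. For mtCytb it was 1.22, 1.28 and 1.17. For mt-Rnr2 it was 1.69, 1.49 and 2.12, and for mt-Rnr1, the small ribosomal RNA, 2.40, 1.38 and 2.44.

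Summed, the 2 ribosomal RNAs had a higher ratio than the rows that encode protein in each plate. All coding rows together had ratios of 1.33, 1.34 and 1.26, and the ribosomal RNAs had 1.87, 1.47 and 2.19. Row by row the 2 sets overlapped in plates 1 and 2. In plate 1 mtNd3 had 1.72, above mt-Rnr2, and in plate 2 mtAtp8 had 1.71, above both ribosomal RNAs. Among the coding rows the complexes had similar ratios, with means over plates of 1.32 (SD 0.048) for complex I, 1.22 (SD 0.055) for complex III, 1.31 (SD 0.029) for complex IV and 1.34 (SD 0.054) for the ATP synthase. Within chrM UMIs the ribosomal RNAs took 19.8%, 26.0% and 24.2% in high-share cells, against 14.9%, 24.3% and 15.6% in middle cells. The median over cells did not show this. High-share against middle cells had 11.8% against 13.7%, 21.0% against 21.2%, and 15.3% against 13.2%. The sums were raised by some of the cells, whose ribosomal RNA fraction reached 58.6%, 52.7% and 65.7% of chrM UMIs. Single middle cells reached 31.2%, 46.3% and 50.4%.

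**Figure D2:**
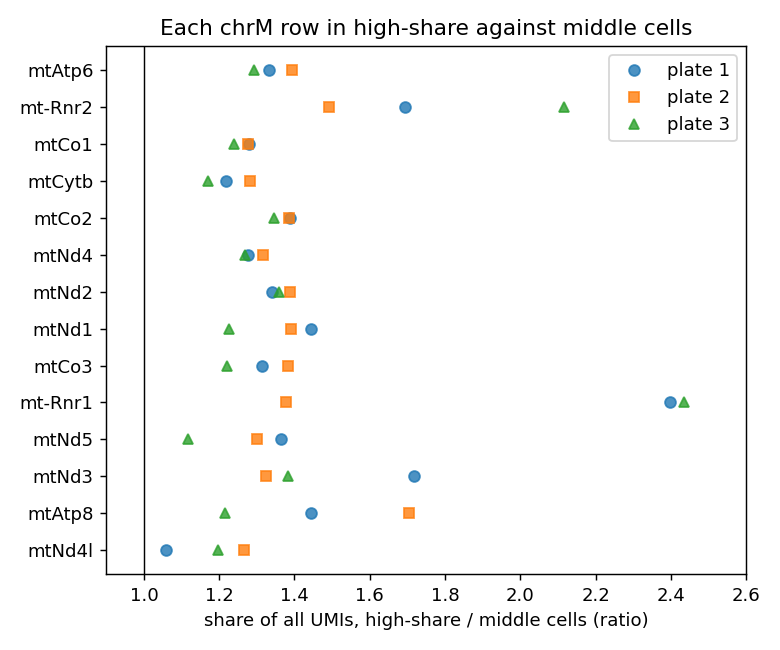
Ratio of the share of all UMIs in high-share to that in middle cells (x axis) for each chrM row with at least 500 UMIs (y axis, ordered by abundance), 1 point per plate. In plate 3 mt-Rnr2 and mt-Rnr1 (2.12 and 2.44) lie above every coding row plotted, while in plate 2 they (1.49 and 1.38) lie below mtAtp8 (1.71) and in plate 1 mtNd3 (1.72) lies above mt-Rnr2 (1.69).

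The high-share cells thus differed in which part of the share was high. The choice of the cells favours such a split, since a high sum without a high coding part needs more ribosomal RNA. When cells were ranked by the protein-coding chrM rows alone, 49 of the 72 high-share cells stayed in the top range. By the ribosomal RNA rows alone 21 of the 72 did. Only 3 cells were in the top range by both, and 5 by neither. Over the cells of a plate, the coding and the ribosomal RNA share had a Spearman correlation of 0.03, 0.05 and 0.03 (n = 172, 201 and 324 cells, which share a library and a denominator). A cell's rank in one part of the mitochondrial transcripts thus said little about its rank in the other.

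**Figure D3:**
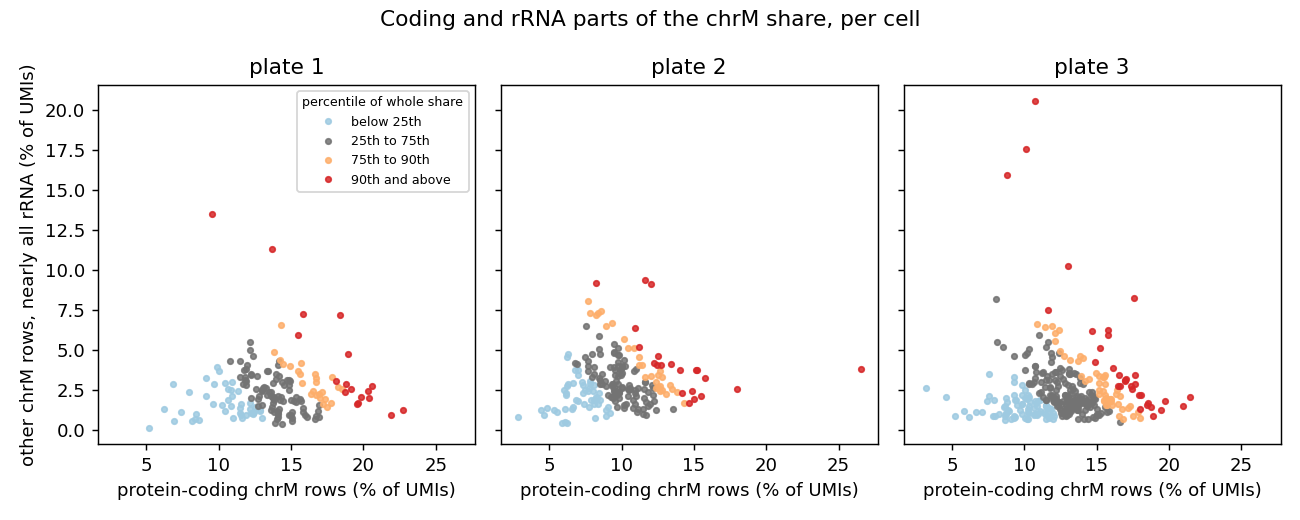
Protein-coding chrM rows (x axis) and the other chrM rows, nearly all ribosomal RNA (y axis), each as a percent of a cell's non-spike-in UMIs, 1 point per cell and 1 panel per plate, coloured by the range of the whole share. In the 49 red high-share cells in the top range of the coding rows, ribosomal RNA took 4.18% to 32.0% of chrM UMIs. In the other red cells it took 19.1% to 65.7%, so the 2 sets overlap.

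High-share cells in and outside the top coding range differed in other transcripts too. Rn45s, the precursor of the cytosolic ribosomal RNAs, had a cell median of 1.75% of nuclear UMIs in the 14 high-share cells of plate 1 that were in the top range of coding rows, and of 8.58% in the other 4. Plate 2 had 2.35% in 13 cells and 6.11% in the other 8, and plate 3 had 2.12% in 22 and 6.93% in the other 11. Middle cells had 1.51%, 2.80% and 1.45%. The cells not in the top coding range were above both other groups in 3 of 3 plates. Over all cells of a plate Rn45s also followed the ribosomal RNA share, with Spearman correlations of 0.50, 0.54 and 0.49. The difference is therefore not particular to the high-share cells.

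Malat1, a nuclear long noncoding RNA, was ordered in the same way between these groups of high-share cells, with 0.123% against 0.214%, 0.159% against 0.614% and 0.201% against 0.386%. Median nuclear UMIs of the high-share cells in the top coding range were 2152.5, 3862 and 1611, below the middle cells in 3 of 3 plates. Those of the other high-share cells were 1787, 5921 and 3072, above the middle cells in plate 2. The role of depth in these differences was not tested in these subsets.

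Measures that the choice of cells had not used showed no difference that 3 plates could call. Surface CD5 had a median fluorescence of 72367 in high-share and 44190.5 in middle cells of plate 1, 50296 and 45904 in plate 2, and 51224 and 45976.5 in plate 3. It was higher in each plate, and log2 ratios averaged 0.33 (SD 0.33). The exact two-sided sign-flip permutation test over plates gave p = 0.25, the smallest that 3 plates allow. Without plate 1 the mean was 0.14, so plate 1 carried most of it. Over all 4 ranges the CD5 median rose with the share in plate 3 only. In plate 2 cells below the 25th percentile had 52890.5 and those between the 75th and 90th had 62821, both above high-share cells. In plate 1 the latter range had 33645, below middle cells. High-share cells in the top coding range had 61039.5, 64175 and 53674.5, above middle cells in each plate. The other high-share cells had 80802.5, 36086.5 and 32635, below middle cells in plates 2 and 3. Spike-in counts per cell, which check the capture in each well, had medians of 1042 against 1047, 1103 against 1016 and 1375 against 1303. Log2 ratios averaged 0.06 (SD 0.064, exact permutation p = 0.5).

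The number of nuclear genes found was compared at 1784 nuclear UMIs. Cells were thinned to that depth and shallower cells were left out, which kept 9 of 18, 15 of 21 and 19 of 33 high-share cells and 66 of 86, 89 of 101 and 134 of 162 middle cells. Among these deeper cells it was 832 against 881, 845 against 846 and 908 against 906. Log2 ratios averaged -0.03 (SD 0.048, exact permutation p = 0.75). By the authors' CD5 classes, 9 of 18, 6 of 21 and 9 of 33 high-share cells in plates 1, 2 and 3 were High, against 22 of 86, 26 of 101 and 34 of 162 middle cells (25.6%, 25.7% and 21.0%). The share was higher in each plate, most in plate 1, and no test was run on it.

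High-share cells carried the transcripts of naive CD4 T cells. Cd4 was found in 65 of 72 cells, Lef1 in 58, Cd3e in 54 and Ccr7 in 44, Lef1 being a transcription factor of the naive state, Cd3e a CD3 chain and Ccr7 a lymph node homing receptor. These were 90.3%, 80.6%, 75.0% and 61.1% of high-share cells, against 96.8%, 86.2%, 83.4% and 67.6% of middle cells. Tcf7 was found in 48.6% of high-share and 64.2% of middle cells. High-share cells had fewer nuclear UMIs per cell, and the role of depth in these rates was not tested. Of the defining markers of other cells, Cd8a, Cd79a, Ms4a1, Gzma and Nkg7 had a UMI in 0 of 72 high-share cells, which allows a share of up to 4.17% of cells with a UMI at this depth. Other markers of the same lists were present. The NK receptor gene Klrd1 was found in 9 of 72 high-share and 39 of 349 middle cells (12.5% and 11.2%), from 12 and 67 UMIs. Its level in CPM, here UMIs scaled to a fixed total of nuclear UMIs, was 144 against 31.1 in plate 1. It was lower in high-share cells of plates 2 and 3, with 43.6 against 63.4 and 23.3 against 43.1 CPM. The myeloid list's Cst3 and Ctss were found in 14 and 23 of 72 high-share cells (19.4% and 31.9%) and in 68 and 137 of 349 middle cells (19.5% and 39.3%). Foxp3 was found in 5 of 72 high-share and 26 of 349 middle cells. Summed over 5 B cell markers found, high-share cells held 2 UMIs and middle cells 17, and the 2 CD8 markers held 1 and 23. The nuclear UMIs in all were 219246 in high-share and 1413578 in middle cells.

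Genes of dying cells had few UMIs in either group. Bax, which opens the outer mitochondrial membrane in apoptosis, had 10 UMIs in 6 of 72 cells, against 37 UMIs in 27 of 349 middle cells. Scaled to nuclear UMIs as for Klrd1, it stood at 71.8, 76.3 and 0 CPM in high-share and 21.8, 34.8 and 21.5 CPM in middle cells, higher in plates 1 and 2. Bbc3 had 1 UMI and Pmaip1 and Cdkn1a had 0, against 14, 7 and 1 in middle cells. The middle cells held more nuclear UMIs in all (1413578 against 219246), so these low counts say little. Ddit3 had 7 UMIs against 27, with 0, 10.9 and 70.0 CPM in high-share and 21.8, 26.6 and 11.6 CPM in middle cells, higher in plate 3 only. Trib3 had 2 UMIs against 3, with 0, 10.9 and 11.7 CPM against 6.23, 0 and 1.66. The heat shock gene Hspa1a had 2 UMIs in 1 of 72 cells and 68 in 25 of 349 middle cells. Fos and Jun, early response genes, were found in 43 and 45 of 72 cells and in 200 and 260 of 349 middle cells.

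Across all nuclear genes no gene passed between high-share and middle cells. Counts were summed per plate and range, and 3818 genes were tested with edgeR's quasi-likelihood test with the plate as a block, with levels in CPM, here counts of the tested genes scaled to a fixed total by TMM. With Benjamini-Hochberg adjustment 0 genes passed at 0.05 (0% of genes tested), and the smallest adjusted p was 0.062. At an unadjusted p under 0.05 there were 188 genes (4.92%), 92 higher (2.41%) and 96 lower (2.51%). DESeq2's Wald test called 1 gene, Rbpj, and had 163 at an unadjusted p under 0.05. In counts simulated for this comparison, the test recovered 63% of genes changed 2-fold and 95% of those changed 4-fold. The changed genes were drawn only from the more abundant genes, and the spread was a set value, not estimated from these data. These shares therefore do not give the power for scarce genes or for sums led by single cells. The standard error of a log2 fold change had a median of 0.50 over all genes and of 0.13 over the 142 genes above 1000 CPM, where the largest log2 fold change in size was 0.72.

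Rbpj, which encodes the DNA-binding partner of Notch, had the smallest p. It had 556, 65.3 and 179 CPM in high-share cells of plates 1, 2 and 3 and 81.7, 37.6 and 33.1 CPM in middle cells. It differed by 2.20 on the log2 scale (SE 0.45, edgeR Benjamini-Hochberg adjusted p = 0.062, higher in 3 of 3 plates). The signal came from few cells, with 39 UMIs in 11 of 72 cells, 18 of them in a single cell of plate 1. Cells below the 25th percentile had 142, 112 and 72.2 CPM, above the middle cells in each plate and above the high-share cells in plate 2.

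Rn45s had 34235, 73488 and 42392 CPM in high-share and 26605, 64497 and 28899 in middle cells. The fit put it at 0.37 on the log2 scale (SE 0.078, Benjamini-Hochberg adjusted p = 0.062 by edgeR). It was higher in each plate, but the ranges of the plates overlap. As a summed share of nuclear UMIs, cells below the 25th percentile had 2.51%, 6.89% and 3.29% Rn45s. Middle cells had 2.43%, 5.62% and 2.61%, less in each plate. High-share cells had 2.95%, 6.14% and 3.87%, less than the lowest range in plate 2. By the count of cells, 7 of 72 high-share and 18 of 349 middle cells had over 10% of nuclear UMIs in Rn45s. The same held for 11 of 174 cells below the 25th percentile. Rn45s is read from repeated gene copies, so its count is uncertain.

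Kcnq1ot1, a long noncoding RNA antisense to Kcnq1 (mm10 chr7:143203458-143296549), had 25029, 5630 and 11906 CPM in high-share and 8132, 6043 and 9310 in middle cells. Plates 1 and 3 were higher and plate 2 lower, and the fit gave 0.69 on the log2 scale (SE 0.19, edgeR, Benjamini-Hochberg adjusted p = 0.354). Gm17821, annotated as a processed pseudogene, had 16547, 4297 and 6853 against 4953, 4325 and 5967 CPM and the same signs. Reads of a pseudogene may be shared with its parent copies.

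Among other genes of smallest p that were higher in each plate, none passed. Ndufb5, a nuclear-encoded complex I subunit, had 306, 261 and 242 CPM against 98.7, 155 and 82.7, with no overlap between the groups and a log2 fold change of 1.26 (SE 0.38). Of all genes tested, 4.37% were higher with no overlap between the plates of the groups and 7.1% lower. Smc4, a condensin subunit, stood at 1196, 1685 and 970 CPM against 759, 1028 and 787, a log2 fold change of 0.57. Tlr1, an innate receptor for lipopeptides, was at 0.86 and the transcription elongation factor Iws1 at 1.23.

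The genes of smallest p that were lower included Lck, the kinase that starts T cell receptor signalling. It had 834, 1293 and 1404 CPM in high-share and 1433, 2014 and 1849 in middle cells, with no overlap. It differed by -0.58 on the log2 scale (SE 0.15, edgeR Benjamini-Hochberg adjusted p = 0.354). Tubb5, a beta tubulin, had 362, 418 and 587 against 718, 770 and 911 CPM (log2 -0.79, SE 0.21), again with no overlap. In cells between the 75th and 90th percentile Lck had 1479, 1821 and 1596 CPM and Tubb5 had 683, 690.1 and 843, so for both genes the high-share cells were the lowest of the 4 ranges in each plate.

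Other genes in that direction were scarce. Kdm2a, a histone demethylase, had 27.8, 65.3 and 12.8 CPM against 163, 181 and 171 and was found in 6 of 72 and 109 of 349 cells. Traf7, Fbrs and the splicing factor gene Sf3b2 had log2 fold changes of -2.17, -2.16 and -1.41. The transcript of Cd5 itself had 584, 392 and 179 CPM against 334, 331 and 277, higher in plates 1 and 2 and lower in plate 3 (log2 0.13, SE 0.29).

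**Figure D4:**
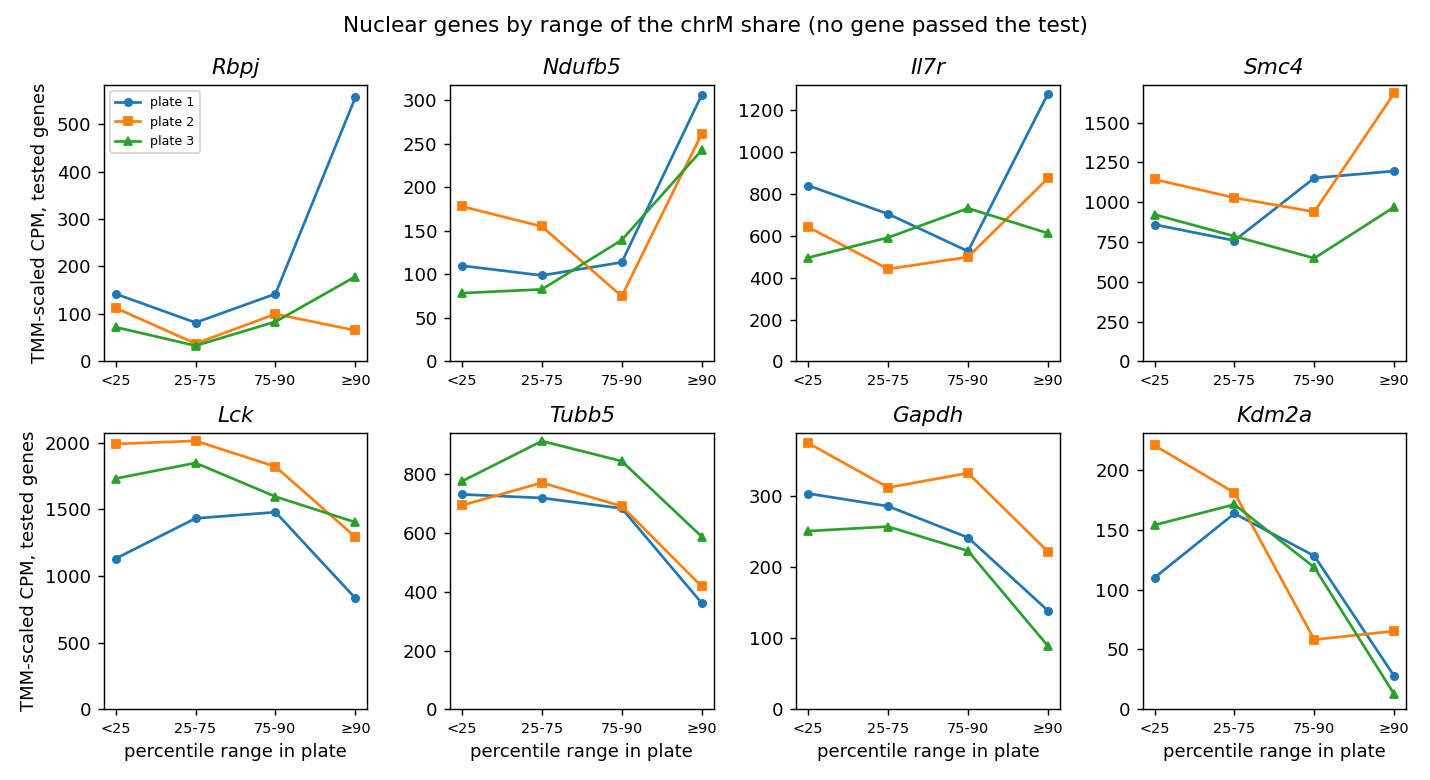
TMM-scaled CPM (y axis, from 0) of 8 nuclear genes in the sums of each plate over 4 percentile ranges of the chrM share (x axis), 1 line per plate. Rbpj in plate 1 reaches 556 at the last point, and Lck, Tubb5 and Gapdh are lowest there in each plate, but none of the 8 genes passed the test.

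Nuclear genes for the mitochondrion gave no call beside the higher chrM transcripts. Of all genes tested 48.4% were positive, and the median log2 fold change was -0.02. Of 63 tested nuclear respiratory chain genes 0 passed, 35 were positive and the median was 0.07. Their summed share of nuclear UMIs was 1.23%, 1.04% and 1.03% in high-share and 1.03%, 1.10% and 1.05% in middle cells. Ndufb5 and the ATP synthase subunit gene Atp5g3 (log2 -0.75) pointed in opposite directions. Of 25 mitochondrial ribosomal protein genes 15 were positive, with a median of 0.11, and of 13 import and chaperone genes 6 were, with a median of -0.07.

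Few genes that act on mitochondrial DNA and RNA were abundant enough to test. Of 4 tested genes for transcription and upkeep of mitochondrial DNA 2 were positive. The 4 tested genes for processing and decay of mitochondrial RNA had a median of -0.56, with Lrpprc, which stabilises mitochondrial messenger RNA, at -1.66 (SE 0.66, edgeR Benjamini-Hochberg adjusted p = 0.843). Their list's summed share was 0.0502%, 0.0589% and 0.0455% in high-share cells and 0.0629%, 0.0744% and 0.0757% in middle cells, lower in each plate. The groups did not overlap, but of all single genes tested 7.1% were also lower with no overlap. This rests on 114 UMIs in high-share cells, and 0 of the 4 genes passed. Of 14 mitophagy and dynamics genes 8 were positive, with a median of 0.03.

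Glycolytic enzyme genes were mostly negative, with no call. Of 10 tested, 8 were negative, where 48.4% of all genes tested were positive. The median log2 fold change of the 10 was -0.46, and 0 passed. The summed share was 0.170%, 0.186% and 0.189% in high-share cells and 0.239%, 0.225% and 0.217% in middle cells, from 403 and 3176 UMIs. The groups did not overlap, which also held for the mitochondrial RNA processing and MHC class I lists and was not tested. There were 31 lists, 26 of them with at least 3 tested genes, and of all single genes tested 7.1% were also lower with no overlap. Gapdh had 139, 222 and 89.3 CPM against 286, 312 and 257 (log2 -0.95, SE 0.33), and Gpi1, the isomerase of the second step, had 167, 235 and 102 against 276, 333 and 283 (log2 -0.87, SE 0.36). The edgeR Benjamini-Hochberg adjusted p was 0.788 for Gapdh and 0.860 for Gpi1.

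Lists of stress and cell death genes gave no call. The median log2 fold change was 0.07 over 6 tested apoptosis genes, -0.31 over 5 p53 targets, -0.24 over 5 genes of the integrated stress response, -0.23 over 11 heat shock genes and 0.07 over 18 immediate early genes, and 0 genes of these lists passed. Hspa8, the constitutive cytosolic chaperone, was at -0.35. Of 75 cytosolic ribosomal protein genes 46 were positive with a median of 0.04. Their summed share was 24.9%, 24.0% and 19.8% in high-share and 22.3%, 22.7% and 22.5% in middle cells, above in plates 1 and 2 and below in plate 3.

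Lists of T cell function held 0 genes that passed. Of 25 naive-state and homing genes 14 were positive with a median of 0.09. Il7r, the survival receptor for interleukin 7, had 1279, 875 and 613 CPM against 705, 441 and 592 (log2 0.63, SE 0.22). Of 19 genes of the T cell receptor complex and its proximal signals 13 were positive, with a median of 0.14 and with Lck on the other side. Of 17 genes that dampen receptor signals 9 were positive, and Ptpn6, the phosphatase SHP-1, was at -0.97 with 83.4, 118 and 166 CPM against 194, 277 and 261. The MHC class I list had a summed share of 1.57%, 1.58% and 1.64% against 1.77%, 1.64% and 1.65%, with 9 of 13 tested genes negative.

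More genes passed when the cells were ranked by the ribosomal RNA rows of chrM alone, a grouping added after the data had been seen. Here the 72 cells of the top range, 21 of them high-share cells by the whole share, were set against the 349 cells between the 25th and 75th percentile. Of 3780 genes tested, 4 rose (0.106%) and 0 fell with edgeR and Benjamini-Hochberg adjustment, beside 233 at an unadjusted p under 0.05. All 4 were noncoding transcripts and higher in 3 of 3 plates.

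Rn45s rose most firmly, from 28028, 65110 and 30282 CPM in the middle to 42775, 114086 and 80533 CPM in the top cells. The fitted log2 change was 0.98 (SE 0.10, edgeR Benjamini-Hochberg adjusted p = 1.64e-07), and by plate it was 0.61, 0.81 and 1.41. Malat1 (mm10 chr19:5795690-5802672) rose from 3348, 4671 and 2946 to 4177, 7968 and 4974 CPM, by 0.64 (SE 0.10, edgeR adjusted p = 0.000639). Kcnq1ot1 rose by 0.78 (SE 0.15, adjusted p = 0.00745, edgeR) and Gm17821 by 0.80 (SE 0.16, adjusted p = 0.0146, edgeR). The last 2 leaned on plate 1, with log2 ratios of 1.27 and 1.40 there, against 0.19 and 0.11 in plate 2, and neither passed without plate 1 (adjusted p = 0.540 and 0.916 by edgeR). Both calls were also lost by DESeq2's Wald test (adjusted p = 0.758 and 0.881) and in cells with at most 10% of nuclear UMIs in the Kcnq1ot1 group, 7 transcripts grouped from earlier results of these cells (log2 0.42 and 0.47, adjusted p = 0.225 and 0.211 by edgeR). Gm17821 did not pass without plate 3 either (adjusted p = 0.054, edgeR).

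For Rn45s and Malat1 the call held without each plate in turn, with log2 fold changes of 0.74 to 1.15 and 0.57 to 0.78. It also held with cells thinned to one depth and shallower cells left out (1.24 and 0.57), with Rn45s left out of the total under the share (1.30 and 0.69), without the cell with most Rn45s (0.90 and 0.58), and by DESeq2's Wald test (1.02 and 0.68). It did not hold without the plate as a block, where the log2 fold changes were 0.94 and 0.65, 0 genes passed with edgeR, 182 had an unadjusted p under 0.05 and the adjusted p was 0.853 for Rn45s and 0.844 for Malat1. Plates differ in the level of Rn45s, which was 65110 CPM in the middle cells of plate 2.

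Rn45s was also higher in each successive range of the 4. Summed over cells, its share of nuclear UMIs from the lowest to the top range of the ribosomal RNA rows was 1.28%, 2.55%, 3.25% and 3.80% in plate 1. Plate 2 had 3.20%, 5.67%, 7.75% and 9.74%, and plate 3 had 1.24%, 2.77%, 3.22% and 6.79%. Over single cells the share of the ribosomal RNA rows and that of Rn45s had Spearman correlations of 0.50, 0.54 and 0.49, and with Malat1 of 0.43, 0.42 and 0.43. The cells of a plate share their library and depth differs between them.

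Ranking by the protein-coding chrM rows gave the opposite sign for Rn45s. Of 3792 genes tested 1 passed (0.0264%), with 204 at an unadjusted p under 0.05. Rn45s fell by 0.55 on the log2 scale (SE 0.10, edgeR Benjamini-Hochberg adjusted p = 0.0151, lower in 3 of 3 plates), and from the lowest to the top range its share ran 3.16%, 2.38%, 1.84% and 1.72% in plate 1. In plates 2 and 3 it ran 7.97%, 5.85%, 3.52% and 3.56%, and 4.45%, 2.42%, 1.59% and 1.84%.

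This fall was less firm than the rise. Rn45s is part of the total under the share, and when it was left out of that total the log2 fold change was -0.44 and did not pass (adjusted p = 0.284, edgeR). It also did not pass without plate 1 (-0.57, adjusted p = 0.674) or without plate 2 (-0.49, adjusted p = 0.987), both by edgeR. DESeq2's Wald test gave -0.49 (adjusted p = 0.201), DESeq2 size factors -0.49 (adjusted p = 0.053, edgeR) and cells with at most 10% of the Kcnq1ot1 group -0.51 (adjusted p = 0.109, edgeR), and without the block it was -0.58 with no call. Malat1 was at -0.57 (SE 0.13, adjusted p = 0.096 by edgeR), lower in 3 of 3 plates. The whole share, which adds the coding and the ribosomal RNA rows, left Malat1 at -0.06 and Rn45s at 0.37.

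**Figure D5:**
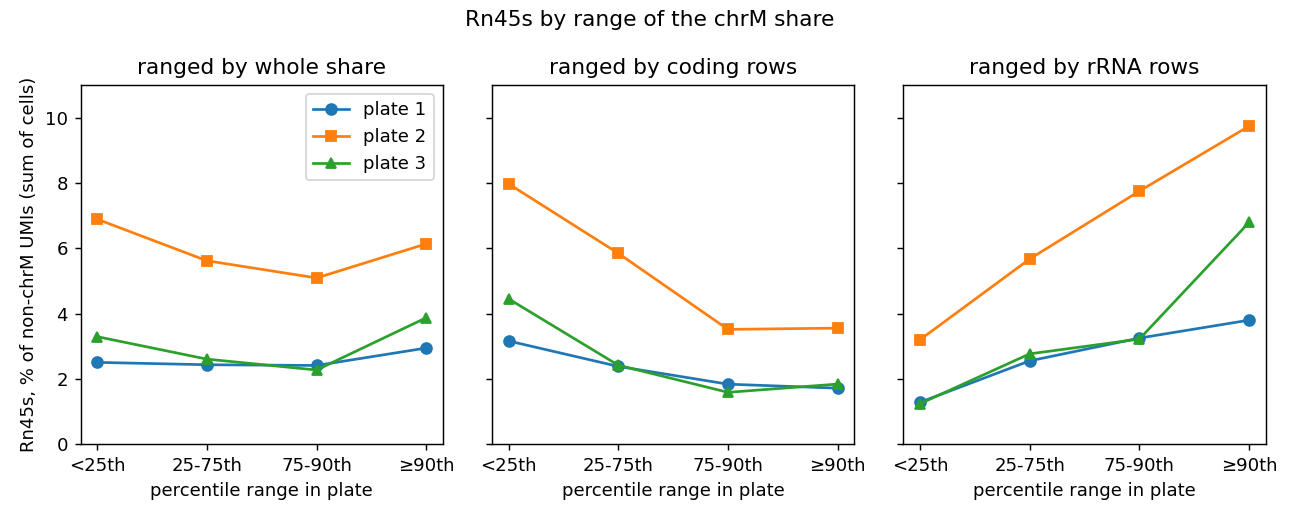
Rn45s as a percent of nuclear UMIs, summed over the cells of a range (y axis), over 4 percentile ranges within a plate (x axis), 1 line per plate. The cells are ranged by the whole chrM share on the left, by its coding rows in the middle and by its ribosomal RNA rows on the right, where the lines end at 3.80%, 9.74% and 6.79%.

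Other transcripts followed the 2 parts of the share differently as well. Over single cells the ribosomal protein genes had Spearman correlations of 0.21, 0.34 and 0.22 with the coding chrM share, and of -0.27, -0.24 and -0.08 with the ribosomal RNA share. The Kcnq1ot1 group had 0.19, 0.12 and 0.13 with the coding and 0.17, 0.28 and 0.31 with the ribosomal RNA share. CD5 fluorescence had values between -0.04 and 0.08 with either part. These correlations are within plates of 172, 201 and 324 cells.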

How the data were processed

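The authors deposited expected counts, that is UMI counts corrected for collisions, for 14355 genes and 84 spike-ins in 697 cells, a CD5 fluorescence signal per cell and a CD5 class. Per the submitters' processing notes, BWA mapped the reads to mm10, in a version not given in the sources used here. Each cell was assigned to its plate by its deposited name, and counts were summed over cells into 12 sums (3 plates by 4 ranges) and rounded.

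edgeR 4.0.16 (TMM, filterByExpr, plate as block, 29.6 prior and 6 residual degrees of freedom) in R 4.3.3 was tested on simulated data. DESeq2 1.42.0 was an alternative. Sums of a plate deviated together (correlations 0.29, 0.61 and 0.46 over 285 genes), and they share a plate, so the block was kept. Exact sign-flip tests went through all sign patterns with numpy 2.4.6, and scipy 1.17.1 gave the binomial intervals. Spike-ins, 19.6% of counts, entered no fit. Positions are from GENCODE M21 on GRCm38 and Rn45s was not matched there.

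The cells, the gene lists and the tests were chosen with earlier results of these data known. The rule names Cd5, 6 genes per direction of smallest p with one sign in all plates, and up to 2 genes of smallest p per list, 63 in all. Lists are described by counts and medians, without a test. The groupings by ribosomal RNA rows and their settings were added after the data had been seen. Some marker genes of these lists are not reported here by name.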

Additional observations from a re-analysis of the deposited data

How the results depend on the processing

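The count of genes between high-share and middle cells was 0. It was 2 with DESeq2 size factors (Rbpj and Rn45s), 1 with DESeq2's Wald test, 8 with no filter, 1 with thinned cells (Rn45s), 1 in cells with at least 2000 UMIs (Rbpj), 2 against all cells below the 90th percentile, 1 by coding rows, 4 by ribosomal RNA rows and 1 in cells with at most 10% of the Kcnq1ot1 group (Rbpj). Leaving out a plate gave 0 to 2, with Kcnq1ot1 and Gm17821 called without plate 3. With no replicate block the edgeR count was 0, beside 157 genes of unadjusted p under 0.05. Without the cell rich in Rbpj it was 0, beside 193. By ribosomal RNA rows the 4 genes became 3 to 10 without a plate, 0 without the block, 2 by DESeq2's Wald test, 10 with no filter, 10 with thinned cells and 2 with at most 10% of the Kcnq1ot1 group. By coding rows the 1 gene became 0 to 1 without a plate, 0 without the block, 0 with DESeq2 size factors, 3 with no filter, 3 without the cell with most Rn45s and 0 with at most 10% of the Kcnq1ot1 group. Settings on the Rbpj-rich cell, the Kcnq1ot1 group and both partial shares were chosen after seeing the data, except the grouping by coding rows. Means over plates without a plate were 0.14 to 0.43 for CD5, 0.035 to 0.098 for spike-ins and -0.042 to 0.00057 for genes detected, and spike-ins were at -0.0015 by coding rows. The cause of these changes was not tested.

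Of 63 named genes under 21 settings, 1126 of 1207 values kept their direction and side of the threshold, 21 came to pass and 60 changed sign (log2 fold changes). At the 80th percentile these were Cd5 (-0.086), Ssbp1 (0.098), Cflar (-0.030) and Klrd1 (-0.092). In the Middle CD5 class these were Rn45s (-0.26), Bnip3l (-0.20), Casp8 (-0.34), Cd69 (0.15) and Folr4 (-0.087). Against all cells below the 90th percentile these were Folr4 (-0.048). In cells with at least 2000 UMIs these were Cd5 (-0.13) and Folr4 (-0.14). Against middle cells of like depth these were Sqstm1 (-0.022), Cflar (-0.021), Ctss (0.059) and Pcna (0.088). With no filter these were Cd5 (-0.062) and Casp8 (-0.0068). With percentiles over all plates these were Cd5 (-0.21), Ssbp1 (0.20), Gabpa (0.16), Il7r (-0.029) and Ifit1 (0.12). By ribosomal RNA rows these were Cd5 (-0.14), Rbpj (-0.98), Tlr1 (-0.54), Lck (0.021), Atp5g3 (0.13), Mrpl43 (0.47), Tomm70a (0.14), Ssbp1 (0.41), Ppp1r15a (0.014), Casp8 (-0.037), Hsp90aa1 (-0.0055), Cd69 (0.0097), Cd2 (-0.062), Ubash3a (0.62), Psmb9 (0.0026), Folr4 (-0.038), Crip1 (-0.14) and Cst3 (-0.21). By coding rows these were Rn45s (-0.55), Hsp90aa1 (-0.029), Ubash3a (0.51), Crip1 (-0.031), Klrd1 (-0.0094) and Pcna (0.040). Leaving out a plate in turn turned the sign of Cd5 (-0.20 to 0.48), Gabpa (-0.19 to 0.39), Bnip3l (-0.020 to 0.83), Ppp1r15a (-1.02 to 0.058), Cflar (-1.35 to 1.11), Casp8 (-0.074 to 0.43), Myc (-0.69 to 1.31), Igfbp4 (-0.018 to 0.68), Cd2 (-0.062 to 0.70), Foxp3 (-0.38 to 2.55), Folr4 (-0.040 to 0.80), Klrd1 (-0.65 to 0.93) and Cst3 (-0.028 to 0.61).

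Depth limits the scarce genes, since the 72 high-share cells hold 219246 nuclear UMIs against 1413578 in the middle cells.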

Other observations

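Cells rich in the Kcnq1ot1 group occurred in all ranges of the chrM share. Over 10% of nuclear UMIs in this group was reached by 8 of 174 cells below the 25th percentile, 17 of 349 middle cells, 6 of 102 cells between the 75th and 90th percentile and 4 of 72 high-share cells. Over single cells the whole chrM share and the group's share had Spearman correlations of 0.27, 0.26 and 0.27 in plates of 172, 201 and 324 cells.

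The agreement between CD5 on the cell and its transcript differed between plates, with Spearman correlations of 0.39, 0.08 and 0.26 over the same cells.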
